A study of Homo sapiens with 14 samples.

Results

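The splicing of the translation initiation factor genes was described here in the human embryonic kidney line HEK293T with and without the K700E mutation of SF3B1. Splice events were taken when the gene symbol was EIF followed by a digit and when the mean of the WT and MT junction reads was at least 10, whatever the kind of event, and 648 of the 114349 events in the table met this rule. SF3B1 is the spliceosome subunit that helps to hold the branch site of an intron, and the study examined the splicing of cells with its hotspot mutation as a route to R-loops, DNA:RNA hybrids, and chromosomal instability. RNA-Seq libraries came from 3 WT samples, whose genotype is given as SF3B1 K700K, and 3 MT samples, whose genotype is given as SF3B1 K700E. No treatment, time or further allele is named for either group, and the lines are isogenic, with K700E at the endogenous locus of the MT line. The number of clones is not given in the sources used here, so a difference between clones and an effect of the mutation cannot be told apart. The table holds splice junctions and no gene expression or SF3B1 allele, so neither the genotype nor the cell type could be checked against it.

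Initiation factors bring the ribosome, the initiator tRNA and the mRNA together. eIF4F, made of the cap-binding eIF4E, the scaffold eIF4G and the helicase eIF4A, recruits the small ribosomal subunit, which carries eIF3 and the eIF2 complex with its tRNA, and eIF1, eIF1A, eIF5 and eIF5B take part in start codon choice and subunit joining. eIF2B recharges eIF2 with GTP, and kinases that phosphorylate eIF2 alpha block that step. Cells with SF3B1 hotspot mutations are known for using cryptic 3′ splice sites that lie a short distance upstream of the usual ones.

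Each event compares 2 forms of a transcript. For a cassette exon the inclusion level is the fraction of transcripts with the exon, for alternative 3′ splice sites (A3SS) it is the use of the upstream site, for alternative 5′ splice sites (A5SS) the use of the downstream site, and for a retained intron the fraction that keeps it. A level of 0 means that the longer form was not seen and a level of 1 that it was the only form. Mutually exclusive exon events give the share of 1 of 2 exons. In 94 of the 114 such events tested the 2 exons are neighbours in an annotated transcript, so that their level need not be a choice between exons.

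The sites on which the results turn are printed first, 5′ to 3′ on the strand of the gene in GRCh38, with the AG or GT next to each splice site in capitals. The pair of 3′ sites in EIF4A2, which encodes an eIF4A helicase, lies 16 bases apart at chr3:186787469-186787498 on the plus strand. Those of EIF3I, EIF2B2 and EIF2B4, whose sites lie 22, 25 and 26 bases apart, are shown as examples for comparison. They lie at chr1:32226145-32226174 and chr14:75005839-75005868 on the plus strand and at chr2:27368112-27368141 on the minus strand.
EIF4A2, 16 bases: ttgaattaAGgtttattaatttgcAGcatg
EIF3I, 22 bases: gtAGcccagactttgcctgactccAGgaaa
EIF2B2, 25 bases: AGaatcagcctttccctcccattgcAGggt
EIF2B4, 26 bases: AGcatcccatcctctgtgatccacccAGcc

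In EIF4G2, which encodes a scaffold related to eIF4G that lacks the eIF4E-binding part, a cassette exon of 114 bases was the event with the lowest p among the cassette exons of these genes. Its 3′ site (chr11:10801771-10801800, minus strand), the 3′ site of the next exon (chr11:10801084-10801113) and its own 5′ site (chr11:10801647-10801666) read as follows.
EIF4G2 exon, 3′ site: actttctttctccttttctgaaatAGgggc
EIF4G2 next exon, 3′ site: tagatatattttgttttcaattccAGatta
EIF4G2 exon, 5′ site: gatgagGTacatttgcctat

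Of the 648 events, 59 had the same level in all 6 libraries and 589 in 47 genes were tested. EIF2AK3, a kinase of eIF2 alpha, had no event that varied. Another 49 listed events had fewer than 10 reads. Levels were compared with limma in 1 fit over the 83581 events of the table with at least 10 reads, a level in all 6 libraries and levels that varied. Shares of all events refer to these. An event was called at an adjusted p under 0.05 with a difference above 0.1. None of the 589 initiation factor events was called, where the share called over all events tested was 0.0311%, so that a count of 0 is not a result about these genes. The robust limma fit also called 0 of them. At an unadjusted limma p under 0.05 there were 19 events, 7 with a higher and 12 with a lower level in MT cells, or 3.23% against 4.47% of all events. All 3 MT libraries lay above all 3 WT libraries in 17 events, where 2.32% of all events did so, and below them in 8, where 3.15% did so. Together these were 4.24% of the events, against 5.46% of all events tested.

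The differences were small in size. Their median size was 0.00367, against 0.0137 over all events, and the median difference (MT minus WT) was −0.00067. A difference above 0.1 was seen in 6 events, or 1.02% against 5.81% of all events, and in each of the 6 the WT and MT libraries overlapped. These genes were also read more deeply than most. Their median was 456.8 reads per event, from 12.33 to 6080, against 82.42 over all events. Among events of at least 100 reads, 1 of 513 (0.195%) differed by more than 0.1, against 0.861% of all such events. Most initiation factor events also sat near an end of the scale, with 360 above 0.95 and 85 below 0.05, so that 24.4% lay between, against 36.5% of all events. Within this middle range 24 of 144 events (16.7%) differed by more than 0.05, against 40.4% of all middle-range events. The median SD between libraries was 0.00462 in WT cells and 0.00611 in MT cells for these genes and 0.0171 and 0.0208 for all events, and the part played by depth or by position on the scale was not tested.

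**Figure D1:**
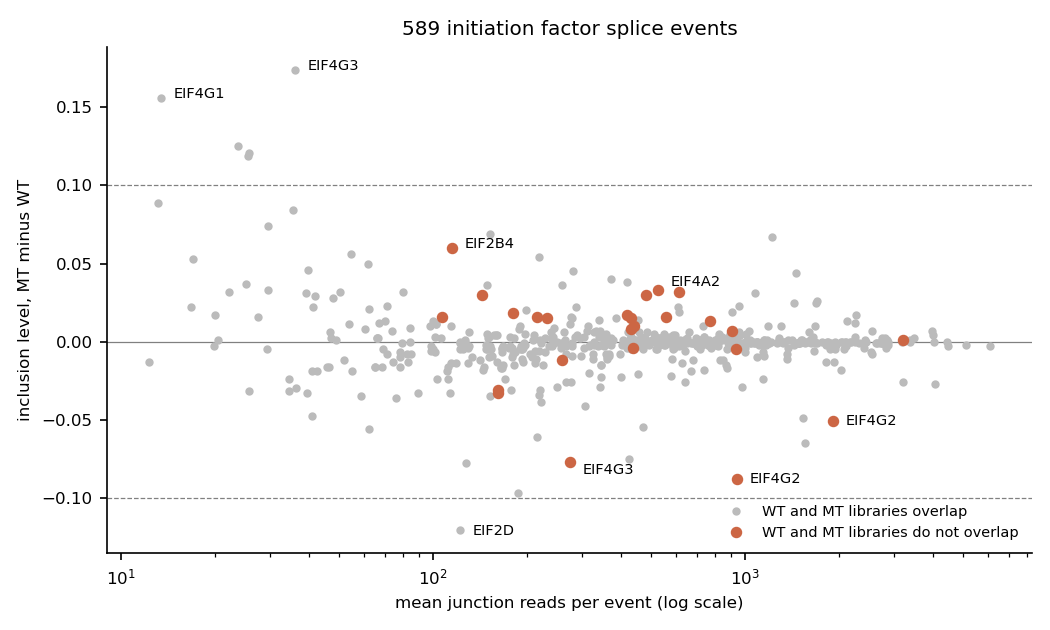
Difference in inclusion level (MT minus WT, y axis) against mean junction reads per event (x axis, log scale) for the 589 initiation factor events tested, 1 point each, with the 25 events whose WT and MT libraries do not overlap in red and dashed lines at a difference of 0.1. Points over 0.1 in size lie mainly at few reads, and 1 of the 513 events with at least 100 reads, in EIF2D, is beyond the lines.

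The largest differences without overlap lay in the eIF4 group, the cap-binding, scaffold and helicase factors, where 226 events in 11 genes were tested. Libraries did not overlap in 6 events with MT above WT and in 5 with MT below, and 1 event had a higher and 6 a lower level in MT cells at an unadjusted p under 0.05. These were 4.87% and 3.1% of the events of the group, below the 5.46% and 4.47% of all events. In EIF4G2 (ENSG00000110321.16) the exon of 114 bases at chr11:10801661-10801774 was included at 0.928, 0.907 and 0.924 in the WT libraries and at 0.857, 0.875 and 0.873 in the MT libraries. Every MT library was thus below every WT library, with means of 0.920 ± 0.011 and 0.868 ± 0.010 (SD, n = 3 each). The difference was −0.051 ± 0.009 (SE), which did not pass after adjustment (adjusted p = 0.325). The exon is coding sequence with a length that is a multiple of 3, and in the annotation 4 of 31 transcripts have both of its junctions and 2 have the junction that skips it.

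The A5SS event of EIF4G2 reads the 5′ site of the same exon against that of the exon before it. Its levels were 0.863, 0.819 and 0.850 in the WT libraries and 0.741, 0.758 and 0.768 in MT libraries, again without overlap. Here the difference was −0.088 ± 0.015 (SE; adjusted p = 0.25). The events are not independent, because both count the same skipping junction, for which the authors' mean was 77 reads in the WT group and 140.5 in the MT group (MT means of reads cover the 6 MT values listed per event, of which 3 have a level column). With a robust estimate of the variance the adjusted p fell to 0.0151 for the A5SS event and 0.0188 for the exon, and both differences stayed under 0.1. A second cassette exon of EIF4G2, of 66 bases at chr11:10806820-10806885, stood at 0.992, 0.991 and 0.985 in the WT libraries and 0.991, 0.978 and 0.960 in MT libraries, and these overlapped. Its difference of −0.013 was −0.005 without MT library 3 and −0.020 without MT library 1.

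**Figure D2:**
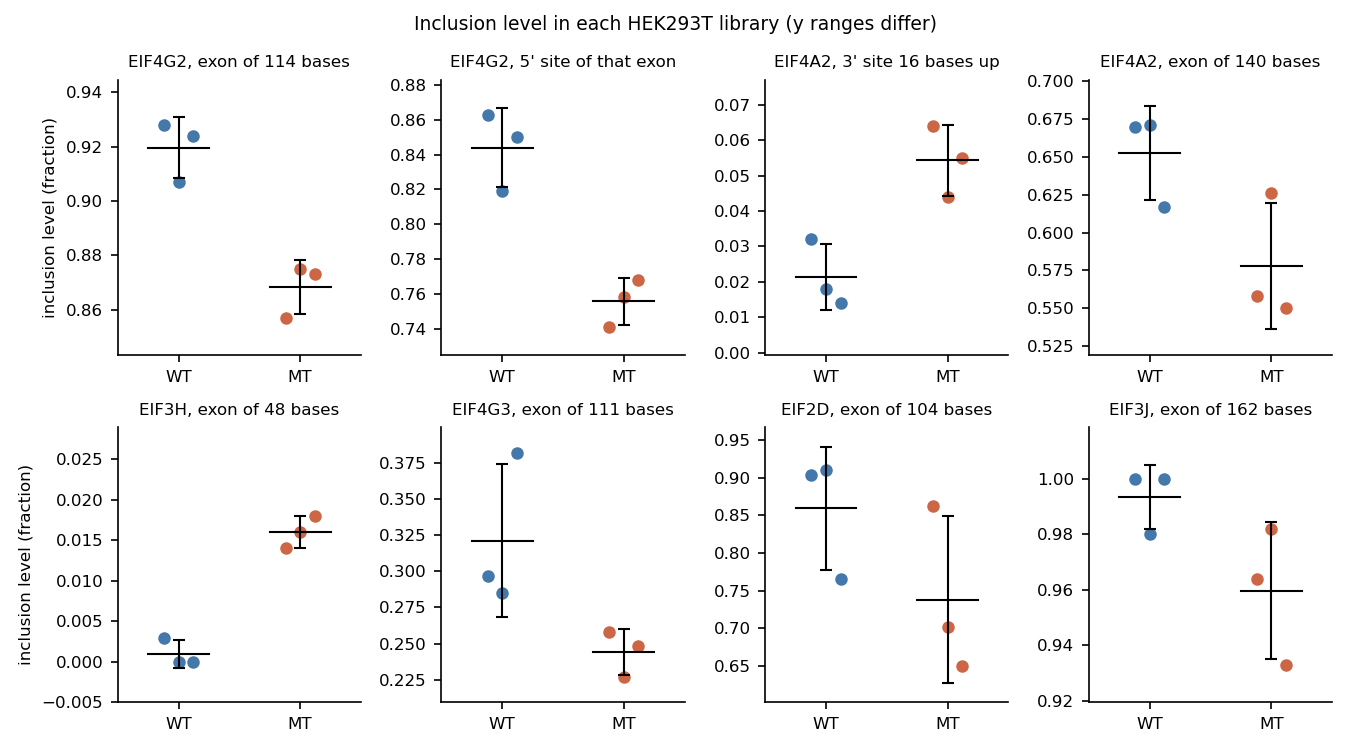
Inclusion level (fraction, y axis, with a different range in each panel) of 8 events in the 3 WT (blue) and 3 MT (red) libraries, with the mean as a line and the SD as bars. Both EIF4G2 panels show every MT library below every WT library and the EIF4A2 3′ site and EIF3H panels show every MT library above, whereas the EIF2D and EIF3J libraries overlap.

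EIF4A2 (ENSG00000156976.16) held events in both directions. The upstream of its 3′ sites 16 bases apart was used at 0.032, 0.018 and 0.014 in the WT libraries and at 0.064, 0.044 and 0.055 in MT libraries. The groups did not overlap, and the difference was 0.033 ± 0.008 (SE; adjusted p = 0.826). In reads, the upstream site had an authors' mean of 13.67 in WT cells and 29.5 in MT cells, beside 550.7 and 455.7 at the downstream site. Use of the upstream site adds the bases chr3:186787479-186787494 to an exon of 90 bases and so shifts the frame. The annotation has 1 transcript with the upstream and 8 with the downstream junction among 27, and no coding sequence over those bases. Inclusion of that exon itself was 0.961, 0.971 and 0.962 in the WT libraries and 0.978, 0.982 and 0.986 in MT libraries in its form of 106 bases, and 0.983, 0.988 and 0.983 against 0.989, 0.992 and 0.993 in its form of 90 bases. MT lay above WT in both, by 0.017 ± 0.004 and 0.007 ± 0.002 (SE). The 2 forms share their skipping reads, with authors' means of 7.667 in WT cells and 4.833 in MT cells. They also share the junction at the end of the exon. The levels of the form of 106 bases are therefore not the fraction of transcripts with that form, and mostly reflect the form of 90 bases.

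Another EIF4A2 exon, of 140 bases at chr3:186784962-186785101, was included at intermediate levels. Its 3′ and 5′ sites lie at chr3:186784936-186784965 and chr3:186785096-186785115 on the plus strand.
EIF4A2 exon, 3′ site: gtaaatgtgtatcctactttttttAGggta
EIF4A2 exon, 5′ site: caacagGTattgatagtgta

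Its levels were 0.670, 0.671 and 0.617 in the WT libraries and 0.558, 0.626 and 0.550 in MT libraries, so 1 MT library lay among the WT values. The difference was −0.075 ± 0.030 (SE; adjusted p = 0.856). Retention of the whole span of 1186 bases around it, an event that counts the same spliced reads, was 0.412, 0.362 and 0.420 in the WT libraries and 0.363, 0.276 and 0.372 in MT libraries, which overlapped. At 13.17 reads a further EIF4A2 cassette exon differed by 0.089 ± 0.113 (SE), with 1 WT library at 0.667 and the others at 1 and the MT libraries from 0.933 to 1.

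EIF4G3, a further eIF4G scaffold, had a coding exon of 111 bases at chr1:20892619-20892729 that most transcripts left out. It was included at 0.297, 0.285 and 0.382 in the WT libraries and 0.258, 0.227 and 0.248 in MT libraries. The groups did not overlap and differed by −0.077 ± 0.032 (SE; adjusted p = 0.856), and by −0.047 without WT library 3. A mutually exclusive event of EIF4G3 at 187 reads differed by −0.097 ± 0.064 (SE), with WT libraries at 0.796, 0.776 and 0.886 and MT libraries at 0.675, 0.831 and 0.662. The largest difference of all initiation factor events, 0.174 ± 0.127 (SE), was in another mutually exclusive event of EIF4G3, at 36.17 reads. Its 2 exons are neighbours in 13 annotated transcripts, so its level need not be a choice between exons. Levels were 0.853, 0.710 and 0.476 in the WT libraries and 0.874, 0.734 and 0.954 in MT libraries. Both of these mutually exclusive events overlapped, and single libraries moved them. The first was −0.063 without WT library 3 and −0.151 without MT library 2, and the second 0.073 without WT library 3 and 0.261 without WT library 1. A cassette exon of EIF4G3 at 25.5 reads differed by 0.119 ± 0.111 (SE), with WT libraries at 0.840, 0.688 and 0.655 and MT libraries at 0.867, 1 and 0.673, which overlapped. An exon of EIF4G3 in forms of 106 and 109 bases was included in nearly all transcripts, and MT was above WT by 0.015 and 0.016.

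EIF4G1, the main scaffold, had 62 events tested, of which 2 differed by more than 0.1, both at few reads and both with overlap. A cassette exon of 87 bases at chr3:184316132-184316218, with a mean of 13.5 reads, stood at 0, 0.124 and 0.171 in the WT libraries and 0.341, 0.307 and 0.114 in the MT libraries, a difference of 0.156 ± 0.087 (SE). No annotated transcript has both inclusion junctions of this event, and 2 have its skipping junction. The same exon is coding in 14 coding transcripts and was read in other events, 1 of them with 5 transcripts that have both inclusion junctions. The other was a pair of 3′ sites 3 bases apart, described with the eIF2B genes. The only EIF4G1 event without overlap was a cassette exon of 94 bases from 0.989 to 1 in the WT libraries and from 0.973 to 0.987 in the MT libraries. Other events that read the same exon overlapped. EIF4E, which binds the cap, had an exon of 140 bases at 1, 0.989 and 1 in the WT libraries and 0.980, 0.993 and 0.983 in MT libraries. EIF4A1 had 33 events, none without overlap, where 5.46% of all events were, and differences from −0.036 to 0.004. EIF4A3, a helicase of the exon junction complex, had an exon of 63 bases at 1 in the 3 WT and at 0.993, 0.997 and 0.997 in the MT libraries. An exon of 117 bases in EIF4B, a cofactor of eIF4A, stood at 0.999 in the 3 WT and at 1 in the 3 MT libraries at 3195 reads, so that a separation of 0.001 counted as no overlap. EIF4H, another eIF4A cofactor, had an alternative exon of 60 bases at 0.147, 0.254 and 0.368 in the WT libraries and 0.214, 0.236 and 0.231 in MT libraries, all MT values within the WT range.

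**Figure D3:**
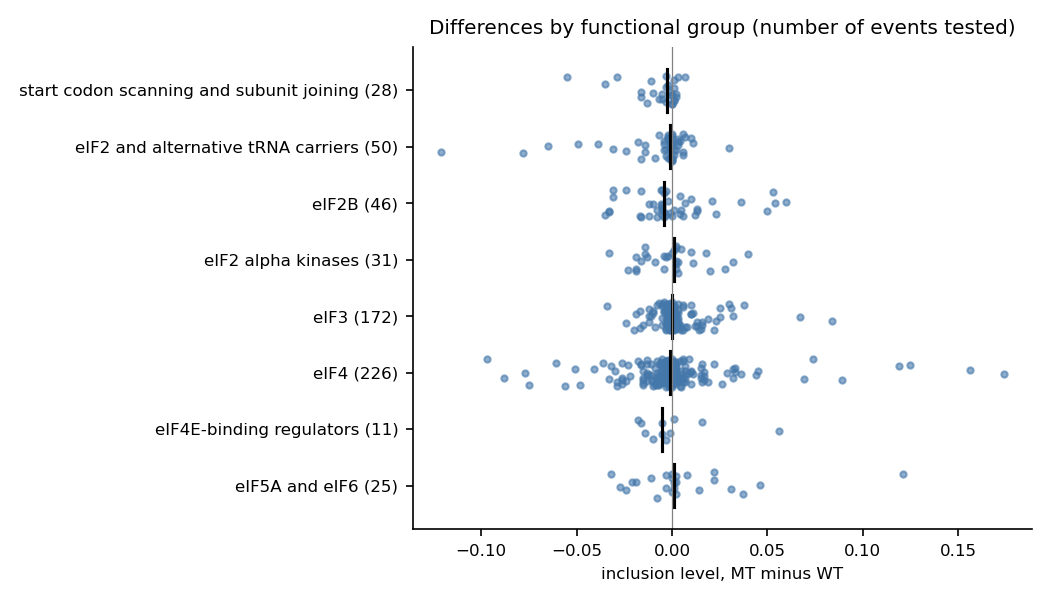
Differences in inclusion level (MT minus WT, x axis) of the events tested, 1 point per event, by functional group (y axis, with the number of events), with the median of each group as a black bar. All 8 medians lie within 0.005 of 0, and the eIF4 group holds 4 of the 6 events over 0.1.

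eIF3 is the large scaffold that joins the small ribosomal subunit to eIF4F, and 172 events in 12 of its subunit genes were tested, with a median size of difference of 0.002. MT libraries lay above WT libraries in 7 and below them in 1, and 4 events were higher and 2 lower at an unadjusted p under 0.05. The shares, 4.65% without overlap and 3.49% by p, were below the 5.46% and 4.47% of all events. Of the 8 without overlap, 4 were in EIF3H and all 4 were higher in MT cells. These were 18.2% of its 22 events, against 5.46% of all events, in a gene picked out after its values were seen. The 4 are not independent, since 2 of them are forms of 1 exon with the same skipping reads. A coding exon of 48 bases in EIF3H was included at 0.003, 0 and 0 in the WT libraries and at 0.014, 0.016 and 0.018 in MT libraries. The difference was 0.015 ± 0.002 (SE; adjusted p = 0.628), and it rested on an authors' mean of 0.6667 inclusion reads in WT cells and 9.333 in MT cells. The form of that exon with 78 bases stood at 0.001, 0 and 0 in the WT libraries and 0.007, 0.009 and 0.008 in MT libraries. It shares the skipping reads and the junction at the end of the exon. A mutually exclusive event of EIF3H, whose 2 exons are neighbours in 6 annotated transcripts, was at 0.002, 0.002 and 0 in the WT libraries and 0.017, 0.019 and 0.015 in MT libraries (adjusted p = 0.596). An exon of 121 bases was at 0.984, 0.995 and 0.985 against 0.996, 1 and 0.997. No annotated transcript has the junctions of that event, and other events that read the same exon overlapped.

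In EIF3M, an exon of 133 bases at chr11:32587012-32587144 was included at 0.873, 0.905 and 0.910 in the WT libraries and 0.913, 0.923 and 0.949 in MT libraries, a difference of 0.032 ± 0.016 (SE; adjusted p = 0.856). This event has 1 annotated transcript with both of its inclusion junctions. Other events that read the same exon, 1 of them with 4 such transcripts, had overlapping libraries. A retained intron of EIF3M was at 0.023, 0.020 and 0.023 in the WT libraries and 0.019, 0.016 and 0.015 in MT libraries. EIF3J, a loosely bound subunit, had 1 event, an exon of 162 bases at chr15:44557489-44557650. Its levels were 1, 0.980 and 1 in the WT libraries and 0.964, 0.982 and 0.933 in MT libraries, which overlapped, and the difference of −0.034 (adjusted p = 0.741) was −0.020 without MT library 3. A mutually exclusive event of EIF3B, whose 2 exons are neighbours in 4 annotated transcripts, was at 0.022, 0.018 and 0.010 in the WT libraries and 0.027, 0.032 and 0.081 in MT libraries. Its difference of 0.030 was 0.013 without MT library 3. An exon of 115 bases in EIF3E was at 0.995, 0.992 and 0.999 in the WT libraries and at 0.993, 0.974 and 0.988 in the MT libraries, with overlap, and the difference of −0.010 was −0.005 without MT library 2. EIF3A, EIF3D, EIF3F, EIF3G, EIF3I, EIF3K and EIF3L had no event without overlap, where 5.46% of all events were.

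The eIF2 complex and the alternative carriers of initiator tRNA had 50 events in 5 genes, of which 3, all in EIF2D and all lower in MT cells, had an unadjusted p under 0.05. These were 6% of the group, against 4.47% of all events, and 1 event (2%) was without overlap, against 5.46% of all events. EIF2D, a factor that can deliver tRNA without eIF2, held an exon of 104 bases at chr1:206599733-206599836 with levels of 0.903, 0.910 and 0.765 in the WT libraries and 0.862, 0.702 and 0.650 in MT libraries. The groups overlapped, the SDs were 0.082 and 0.110, and the difference was −0.121 ± 0.079 (SE; adjusted p = 0.856). It was −0.183 without MT library 1 and −0.077 without MT library 3. No annotated transcript has both inclusion junctions of this event, and 3 have its skipping junction. An exon of 150 bases has the same authors' means of skipping reads, 11.67 in WT cells and 17 in MT cells. The exon of 104 bases was also read in another event, whose inclusion junctions are in 2 annotated transcripts. That event was not among the 3 above and differed by no more than 0.05. A downstream 5′ site of EIF2D, which adds 36 bases, was used at 0.016, 0.026 and 0.015 in the WT libraries and 0.046, 0.059 and 0.043 in MT libraries, without overlap, and differed by 0.030 ± 0.006 (SE; adjusted p = 0.856). An exon of 108 bases, read in 2 events, was at 1 in every WT library, and from 0.959 to 1 in the MT libraries. In the genes for the eIF2 subunits themselves, EIF2S1, EIF2S2 and EIF2S3, no event was without overlap or under an unadjusted p of 0.05. Over all events these shares were 5.46% and 4.47%. The largest difference in these subunit genes, −0.065, was a mutually exclusive event of EIF2S3 with WT libraries from 0.298 to 0.496.

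Among the 46 events of the eIF2B genes none had an unadjusted p under 0.05, where 4.47% of all events did. Libraries did not overlap in 3 of them (6.52%), near the 5.46% of all events. All 3 were in EIF2B4, which encodes a subunit of the regulatory part. Its pair of 3′ sites 3 bases apart (chr2:27369206-27369235, minus strand) was read with the upstream site at 0.605, 0.616 and 0.634 in the WT libraries and at 0.719, 0.676 and 0.640 in MT libraries. The difference was 0.060 ± 0.024 (SE; adjusted p = 0.856). The others were mutually exclusive events that read nearly the same junctions, at 0.554 to 0.582 in WT cells and 0.529 to 0.547 in MT libraries for the first. Sites 3 bases apart occurred in 6 events of 5 genes, and all 6 pairs are shown because they give the class in full, with EIF2B4 the only one without overlap.
EIF2B4, 3 bases: atttttttttttaatgcttttAGtAGgccc
EIF4G3, 3 bases: cttttttgtacttcaaatcccAGcAGctgc
EIF4G1, 3 bases: tcttgtcttcatcccttgcttAGcAGgctg
EIF4G1, 3 bases, another exon: ccacatacgttgtcccgacacAGcAGtacc
EIF4ENIF1, 3 bases: tgaccctcccctctccttttcAGcAGatga
EIF4A2, 3 bases: tctgactgcagtattcttgtcAGcAGagaa

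These lie at chr1:20950105-20950134 on the minus strand in EIF4G3, at chr3:184323382-184323411 and chr3:184317724-184317753 on the plus strand in EIF4G1, at chr22:31447562-31447591 on the minus strand in EIF4ENIF1 and at chr3:186784406-186784435 on the plus strand in EIF4A2. The upstream site of EIF4G3 was used at 0.447, 0.464 and 0.465 in the WT libraries and 0.470, 0.454 and 0.405 in MT libraries. At the first site pair of EIF4G1 it was used at 0.349, 0.376 and 0.378 in the WT libraries and 0.382, 0.376 and 0.362 in MT libraries at 660 reads, a difference of 0.006 ± 0.011 (SE). In EIF4ENIF1 the levels were 0.334, 0.237 and 0.293 in the WT libraries and 0.400, 0.314 and 0.317 in MT libraries at 54.67 reads, with overlap. The other EIF4G1 pair had the largest difference of the class, 0.125 ± 0.101 (SE) at 23.75 reads, with WT libraries at 0.329, 0.197 and 0.423 and MT libraries at 0.495, 0.290 and 0.540, which overlapped. In EIF4A2 the levels were 0.212, 0.133 and 0.234 in the WT libraries and 0.196, 0.143 and 0.201 in the MT libraries. Both sites of each pair were thus in use in both groups.

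The kinases of eIF2 alpha had 31 events in 3 genes, of which 1 (3.23%) was without overlap and 6.45% had an unadjusted p under 0.05. Over all events these shares were 5.46% and 4.47%. The genes grouped here with the start codon and joining factors had 28 events in 6 genes. EIF1AD was placed in that group, and a role of it in these steps was not examined. EIF2AK2, the kinase that senses double-stranded RNA, had an exon of 159 bases at 0.980, 0.976 and 0.978 in the WT libraries and 1, 1 and 0.989 in MT libraries, without overlap (0.018 ± 0.004 SE; adjusted p = 0.856). It rests on authors' means of 2 exclusion reads in WT cells and 0.5 in MT cells. Another exon, of 123 bases, went the other way, with overlap, from 0.980, 1 and 1 in WT to 0.984, 0.959 and 0.937 in MT libraries. EIF1, EIF1B, EIF1AX, EIF1AD, EIF5 and EIF5B had no event without overlap and none with an unadjusted p under 0.05. Over all events these shares were 5.46% and 4.47%, so that the counts of 0 are not a result about these genes. The only cassette exon of EIF1B, of 164 bases, was at 1 in the 3 WT libraries and at 0.995 ± 0.005 (SD) in the MT libraries. The eIF4E-binding regulators had 11 events in 2 genes. Of these, 1 (9.09%) was without overlap and 1 (9.09%) had an unadjusted p under 0.05, against 5.46% and 4.47% of all events. A 5′ site of EIF4ENIF1, the carrier of eIF4E into the nucleus, was at 0.985, 0.987 and 0.980 in WT cells and at 1 in the 3 MT libraries, at authors' means of 1 and 0.3333 exclusion reads. eIF5A and eIF6 had 25 events in 3 genes, none without overlap, where 5.46% of all events were. In so few events that count is not a result about these genes. The largest difference, 0.121 ± 0.074 (SE), was a mutually exclusive event of EIF5A2 at 25.75 reads, with WT libraries at 0.294, 0.462 and 0.235 and MT libraries at 0.481, 0.478 and 0.394.

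Alternative 3′ sites were looked at apart, since upstream sites at a short distance are the known mark of this mutation. Of 42 A3SS events tested, 3 (7.14%) were without overlap, against 9.29% of all A3SS events. In 9 events the sites were 10 to 30 bases apart, and in 2 of these, in EIF4A2 and EIF3E, all MT libraries lay above all WT libraries, where 10.3% of the 997 such events tested did so. EIF3E encodes an eIF3 subunit, and its upstream site, 23 bases away and within untranslated sequence in the 3 coding transcripts that hold it, was used at 0.036, 0.032 and 0.045 in the WT libraries and 0.054, 0.048 and 0.051 in MT libraries. The difference was 0.013 ± 0.004 (SE; adjusted p = 0.856). The upstream site printed for EIF3I was used at 0.043, 0.059 and 0.059 in the WT libraries and 0.076, 0.046 and 0.043 in MT libraries, and that of EIF2B2 at 0.038, 0.007 and 0.040 against 0.040, 0 and 0.031. In EIF2B4 the upstream of the sites 26 bases apart was the usual one, at 0.969, 0.942 and 1 in the WT libraries and 0.988, 0.988 and 0.964 in MT libraries. The other members of this class, in EIF5A, EIF4A1 and EIF4G1, overlapped as well.

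Of the 20 bases before the upstream AG, 50% were C or T in EIF4A2, 40% in EIF3I, 90% in EIF2B2 and 65% in EIF2B4. Before the downstream AG the shares were 55%, 70%, 80% and 75%. Over the 997 events the medians were 65% and 70%. EIF4A2 was below both medians, and EIF3I, whose levels overlapped, had the lower share before its upstream AG. Before the upstream and downstream AG the shares were 80% and 80% in EIF5A (18 bases apart). In EIF4A1 they were 75% and 80% for sites 24 bases apart and 75% and 70% for sites 26 bases apart. EIF3E, which did not overlap, and EIF4G1 were not measured, so these shares do not cover the whole class.

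**Figure D4:**
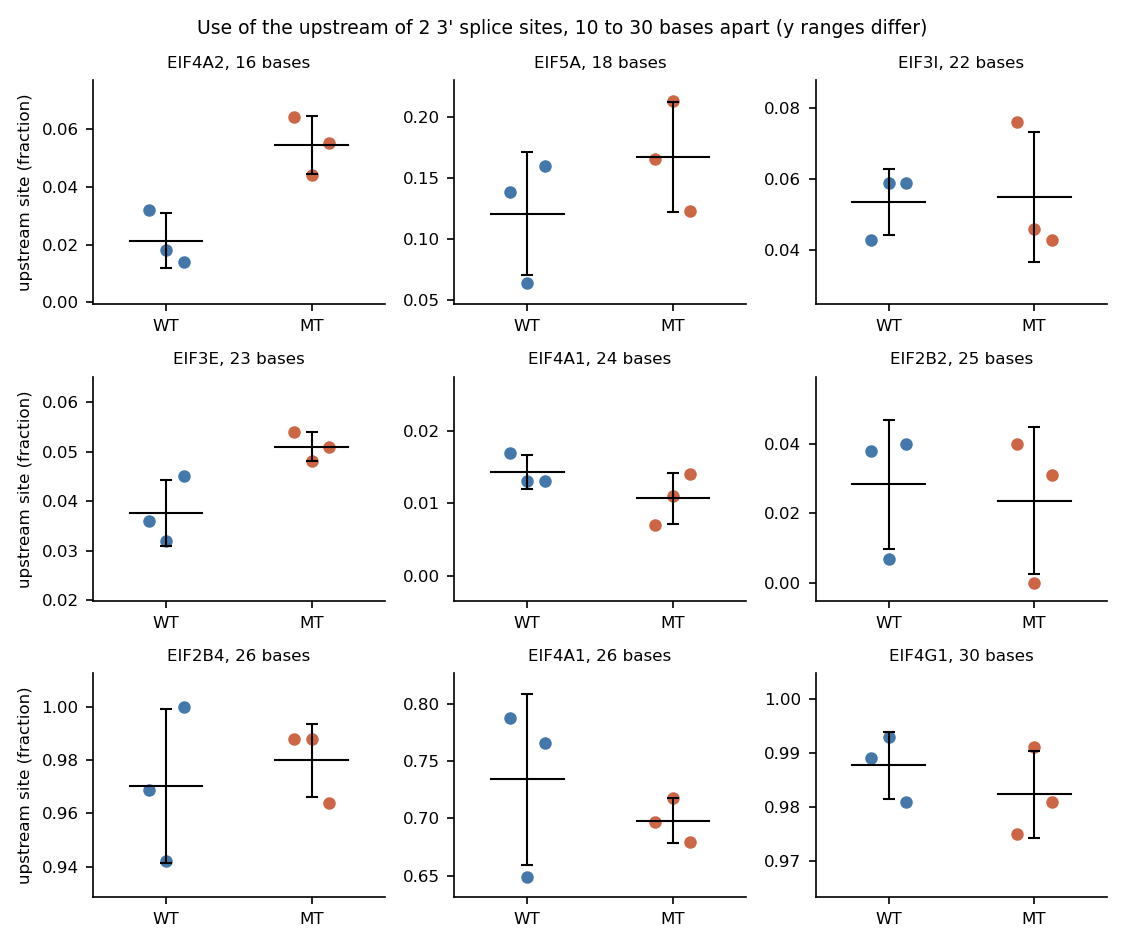
Use of the upstream 3′ splice site (fraction, y axis, with a different range in each panel) in the 3 WT (blue) and 3 MT (red) libraries for the 9 initiation factor events with sites 10 to 30 bases apart, with the mean as a line and the SD as bars. EIF4A2 and EIF3E are the panels in which every MT library lies above every WT library.

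Other translation genes were described from a list of 58 genes for initiation cofactors, their kinases and phosphatases, elongation and release factors, of which 51 had an event tested. None of their 736 events was called by limma. At an unadjusted p under 0.05 there were 4 higher and 22 lower (3.53%), and 47 (6.39%) were without overlap, 16 with MT above and 31 with MT below. Over all events 4.47% had such a p and 5.46% were without overlap, 2.32% with MT above and 3.15% with MT below. Their median size of difference was 0.00717. LARP4, which binds poly(A) tails, held the 2 lowest p-values of the list. Its upstream 3′ site, 18 bases away, was used at 0.064, 0.102 and 0.066 in the WT libraries and 0.192, 0.184 and 0.220 in MT libraries, a difference of 0.121 ± 0.016 (SE; adjusted p = 0.596). A cassette exon of LARP4 was included at 0.965, 0.987 and 1 in the WT libraries and 0.874, 0.935 and 0.906 in MT libraries (adjusted p = 0.424). Both were larger in size than the separations at EIF4A2 and EIF3E, and this comparison was not tested.

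Junction reads also gave a rough view of how much of each gene was sequenced. The ratio of the authors' MT mean to their WT mean was taken over the events of at least 50 reads in the 37 initiation factor genes with at least 3 such events, and its median is given on the log2 scale, without an error because the means are pooled. Over 5817 genes the median was 0.02, with 5% of genes below −0.37 and 5% above 0.35. EIF3E stood at −0.94, 0.52-fold, over 17 events, at the 0.241 percentile of genes, and EIF2D at −0.60, 0.661-fold, over 17 events, at the 1.25 percentile. EIF1AD stood highest at 0.40, or 1.32-fold. The others lay between −0.33 in EIF2A and 0.35 in EIF4ENIF1. The median SD between libraries over the EIF2D events tested was 0.00608 in WT cells and 0.0118 in MT cells. These values were above the 0.00462 and 0.00611 of the initiation factor events and below the 0.0171 and 0.0208 of all events. The MT means of reads cover 6 listed values and the MT SDs cover 3 libraries. The part of the lower reads of EIF2D in its differences was not tested.

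**Figure D5:**
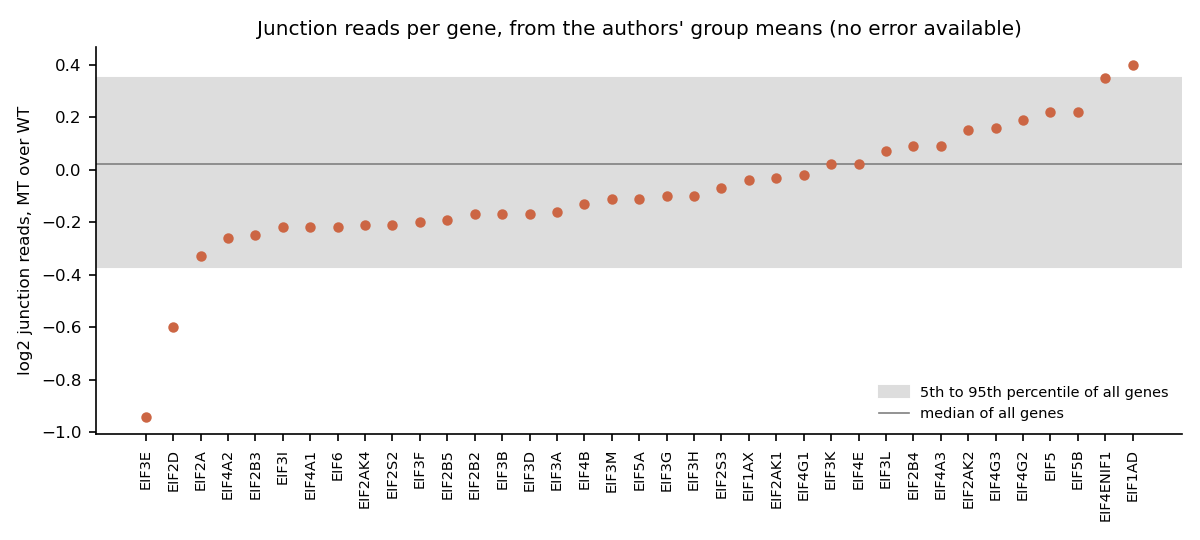
Log2 ratio of junction reads, MT over WT (y axis), from the authors' group means, for the 37 initiation factor genes (x axis, 1 point each), with the median of 5817 genes as a line and their 5th to 95th percentile in grey. EIF3E at −0.94 and EIF2D at −0.60 lie below the grey band and EIF1AD at 0.40 lies above it, and no error is available.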

How the data were processed

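RNA-Seq of 3 WT and 3 MT HEK293T samples was used, and DRIP-seq of Nalm-6 cells from the same series was not used here. The submitters' processing notes name STAR, StringTie and GRCh38, and Methods name the rMATS model. The authors' deposited inclusion levels are a fraction, the length-scaled inclusion reads over those of both forms. The authors' deposited junction counts enter as group means, with those of MT cells taken over 6 listed values per event. The deposited MT level columns equal the first, second and sixth of these, and which MT sample each column holds is not given in the sources used here. Why 6 values are listed for 3 MT samples is not given either, so the 3 columns may not be the 3 samples of the series. MT libraries are numbered by column. Methods give 1 sequencing depth for all samples, and the reads of each library were not analysed here. The authors' p-values, adjusted p-values and differences were deposited too and were not used.

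The arcsine of the square root of each level was compared by limma 3.58.1 in R 4.3.3, with a variance trend on log2 reads and Benjamini-Hochberg adjustment over 83581 events. This took the place of the rMATS model, with its thresholds of 0.05 and 0.1. Scripts were tested on simulated data. The SE of a difference comes from the 3 and 3 libraries. Named events were the 25 with the lowest unadjusted p, with 1 added for each group that had none; further events were named for lying without overlap or for having the most reads, after their values were seen. Members and lists were chosen with earlier results of these data known. The labels name the samples replicates without saying that they came from separate cultures, so p-values measure the spread between these samples, which may be technical. Events were placed on GENCODE 44, where 100% of 1453 introns of the member events had GT-AG or GC-AG ends in GRCh38. Other transforms, variance models, read minimums and difference thresholds and the fits without each library were tried.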

Additional observations from a re-analysis of the deposited data

How the results depend on the processing

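The counts of initiation factor events called and of events called in the other translation genes stayed at 0 under each alternative run. The count over all 83581 events, 26, was 0 with a logit transform, 0 with no transform, 0 without a trend of the variance, 63 with a robust variance and 17 at a minimum of 50 reads, and from 3 to 13 with each of the 6 libraries left out in turn, lowest without MT library 1 (3), MT library 2 (4) and WT library 3 (6). The 25 initiation factor events without overlap became 46 to 72 with each library left out in turn, where fewer libraries have to separate. The median size of difference of the 25 events with the lowest p was 0.0183, and 0.03 with the logit transform, whose bounds drop events near 0 or 1. None of the differences of those 25 events reversed, and 2 passed the adjusted threshold with a robust variance, the A5SS event of EIF4G2 (adjusted p = 0.0151) and its exon (adjusted p = 0.0188). No paired analysis was possible because the MT columns are not tied to replicate numbers. Read depth limits the rare forms: the EIF3H exon of 48 bases rests on a mean of 0.6667 inclusion reads in the WT group, and the EIF4ENIF1 5′ site on 1 and 0.3333 exclusion reads in the WT and MT groups.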
